A study of Mus musculus with 42 samples.

Results

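The mouse genome holds 5 genes of the negative limb of the circadian clock that are described here, the Period genes Per1, Per2 and Per3 and the cryptochrome genes Cry1 and Cry2. They were chosen by name and placed on the mm10 build, and they are 5 of 21938 protein-coding genes of the annotation on chromosomes 1 to 19, X and Y. The measurement is the position of lamina-associated domains (LADs), long stretches of chromatin bound by lamin B1 (LMNB1). They were called in 14 LMNB1 ChIP-seq libraries from livers of wild-type C57Bl/6 mice. As the study states, its ChIP does not tell LMNB1 at the nuclear periphery from LMNB1 in the nuclear interior. The 7 groups were NS mice, which were not synchronized and were killed at noon on the day before food was removed, and mice fasted for 24 h and refed at circadian time zero (CT0), which were killed at CT0, CT6, CT12, CT18, CT24 and CT30, with CT the hours since refeeding. Each group held 2 mice, and each library came from a piece of whole liver, so it averages over all the cell types of the organ. The growth protocol gives male mice and the sample attributes give female mice, and the age was not given in the sources used here. The 7 input and 21 RNA-seq libraries of the series were not analysed here.

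In the clock of liver cells, the CLOCK and ARNTL (BMAL1) proteins bind E-boxes in DNA and switch on the Per and Cry genes. The PER and CRY proteins build up over hours, enter the nucleus together and shut off CLOCK and ARNTL, which closes a feedback loop of about a day. PER2 and the CRY proteins carry most of the repression, PER1 adds to it and responds to acute signals, and PER3 has a smaller part. LADs are poor in genes, rich in A and T and mostly silent, and genes inside them are often little expressed.

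The promoters of the genes are shown first, because they are the control regions through which the clock acts on these genes, and it was asked whether a LAD covered them. The windows are from RefSeq on GRCm38.p6, which is the mm10 build, and each runs from 250 bases before to 50 bases after a start site, 5′ to 3′ on the strand of the gene. Capitals mark an E-box (CACGTG), an E′-box (CACGTT or, on the other strand, AACGTG) or a D-box (TTATGTAA), which are the letters searched on both strands. The Per1 window is chr11:69098699-69098998 on the plus strand, the Per3 window is chr4:151044616-151044915, the Cry1 window is chr10:85185005-85185304 and the Cry2 window is chr2:92434020-92434319, the last 3 on the minus strand.
Per1: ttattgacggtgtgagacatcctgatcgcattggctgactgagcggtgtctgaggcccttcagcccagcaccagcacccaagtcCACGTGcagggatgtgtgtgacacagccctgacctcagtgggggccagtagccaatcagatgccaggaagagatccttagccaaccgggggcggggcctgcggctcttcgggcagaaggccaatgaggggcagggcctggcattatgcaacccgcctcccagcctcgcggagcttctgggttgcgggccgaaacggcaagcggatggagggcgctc
Per3: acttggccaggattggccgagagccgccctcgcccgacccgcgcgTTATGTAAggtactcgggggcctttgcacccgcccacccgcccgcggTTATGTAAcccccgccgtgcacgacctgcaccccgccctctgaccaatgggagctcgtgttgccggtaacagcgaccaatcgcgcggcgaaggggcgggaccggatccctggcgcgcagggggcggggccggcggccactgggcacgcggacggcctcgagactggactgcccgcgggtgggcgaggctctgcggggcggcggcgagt
Cry1: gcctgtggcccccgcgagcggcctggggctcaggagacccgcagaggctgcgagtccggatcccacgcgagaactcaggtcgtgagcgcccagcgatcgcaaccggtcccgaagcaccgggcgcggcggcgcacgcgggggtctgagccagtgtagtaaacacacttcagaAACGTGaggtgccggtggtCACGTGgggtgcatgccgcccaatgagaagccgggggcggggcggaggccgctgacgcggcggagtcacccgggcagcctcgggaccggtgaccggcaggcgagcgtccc
Cry2: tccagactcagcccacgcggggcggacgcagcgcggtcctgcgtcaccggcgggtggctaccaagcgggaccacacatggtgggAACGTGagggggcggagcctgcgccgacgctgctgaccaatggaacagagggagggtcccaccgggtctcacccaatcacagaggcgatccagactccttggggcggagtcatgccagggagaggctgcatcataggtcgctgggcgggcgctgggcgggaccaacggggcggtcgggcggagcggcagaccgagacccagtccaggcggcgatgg
The Per1 window held 1 E-box, the Per3 window held 2 D-boxes, the Cry1 window held 1 E-box and 1 E′-box, and the Cry2 window held 1 E′-box. Among the 32851 promoter windows of the same length, 7.15% held the E-box letters, 4.68% the E′-box letters and 0.938% the D-box letters. None of these letters was found in a second Per1 window, chr11:69099902-69100201, which belongs to a start site further into the gene. No window was found for Per2, so its promoter is not shown. A match of letters is not evidence of binding. No LMNB1 LAD covered any of these 5 windows in any of the 14 libraries. That follows from the distances below, since no LAD came closer than 1.65 Mb to any of the genes.

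The depth of the libraries is unknown, since the files give intervals without read counts or scores. Libraries held between 86 and 341 LADs, which covered 335 to 663 Mb or 12.3% to 24.3% of the genome. Most LAD starts of a library lie on a regular grid, whose step is called the bin size here. It was read from the starts on whole kb, and 82 of the 2845 starts, between 2 and 12 in a library, do not lie on whole kb and were left out of it. The bin size ran from 4 kb to 61 kb, and the mice of a group could differ widely, as at CT0 with 47 kb in mouse 1 and 4 kb in mouse 2. Median LAD length ran from 0.984 Mb in NS mouse 2, with a bin size of 4 kb, to 3.45 Mb in NS mouse 1, with a bin size of 61 kb. A change in distance can come from a border that moved or from a LAD that was called in one library and not in the other, and these are kept apart below.

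All 5 genes lay outside LADs in all 14 libraries. That is the usual state of a gene, as 18178 genes (82.9%) overlapped a LAD in no library. The closest approach was 1.65 Mb, at Per1 in CT0 mouse 1. Over the 14 libraries the median distance from the gene body to the nearest LAD was 2.03 Mb for Cry2, 2.82 Mb for Per2, 3.20 Mb for Per3, 4.31 Mb for Per1 and 10.8 Mb for Cry1, against a median of 3.91 Mb over all genes. Cry2 lay nearer to a LAD than Per2 in all 14 libraries and their ranges did not overlap. The other neighbours in this order did overlap. Per2 was nearer than Per3 in 13 libraries of 14, Per3 was nearer than Per1 in 6, and Per1 was nearer than Cry1 in 8, so the order among Per3, Per1 and Cry1 rests on the library chosen.

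The neighbourhoods of the genes were GC rich compared with LADs. In the 1 Mb centred on the start site the GC content was 47.5% for Per1, 47.8% for Per2, 48.8% for Per3, 44.9% for Cry1 and 47.1% for Cry2. Over all genes the median was 44.1%, and in the bases covered by a LAD in any library it was 38.7%. Gene density, counted within 1 Mb on either side of the start site, did not follow the same order. Per1 had 82 coding genes, where the median gene had 29, while Per2 had 19, Per3 had 21, Cry1 had 16 and Cry2 had 25.

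**Figure D1:**
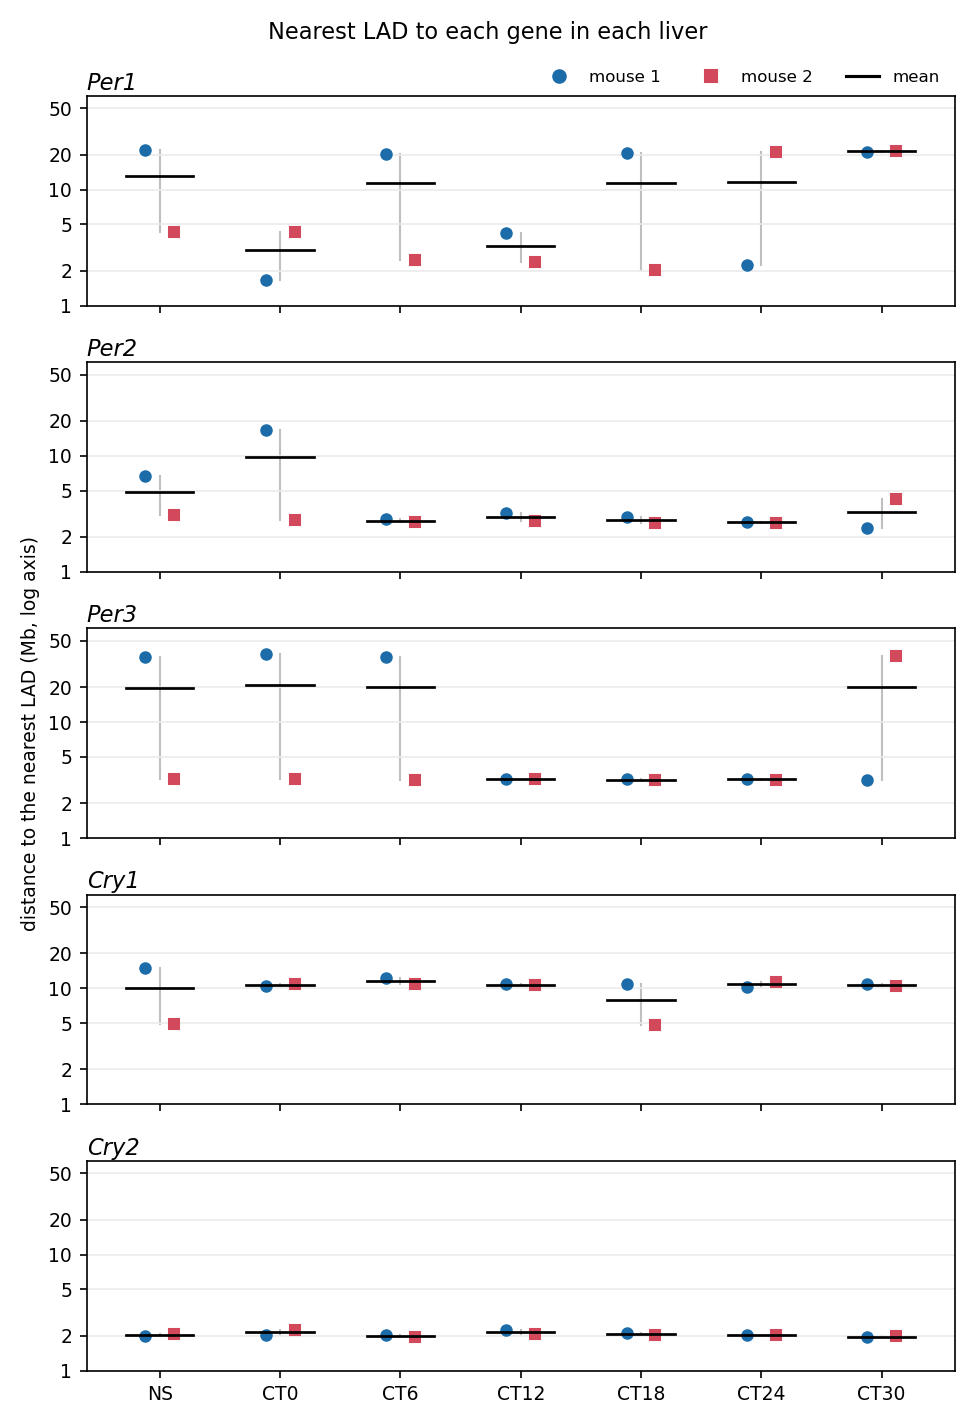
Distance in Mb, on a log axis, from each gene to its nearest LAD in each group, with a circle for mouse 1, a square for mouse 2 and a bar for their mean. Cry2 stays between 1.95 and 2.23 Mb in all libraries, while Per3 takes either about 3.20 Mb or at least 36.4 Mb and Per1 ranges from 1.65 to 21.9 Mb.

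Per3 (chr4:151003652-151044665, minus strand) showed the plainest on-or-off pattern. Its nearest LAD lay 36.4 Mb away in NS mouse 1 and 3.20 Mb in NS mouse 2, 38.2 and 3.21 Mb at CT0, and 36.6 and 3.16 Mb at CT6. It then lay 3.20 and 3.22 Mb away at CT12, 3.20 and 3.19 Mb at CT18 and 3.21 and 3.19 Mb at CT24, and 3.16 and 36.7 Mb at CT30. In 10 libraries the distance was thus the same to within 60.0 kb, and in 4 libraries it was more than 10 times as long. The short distance is to a small LAD downstream of the gene, chr4:146892001-147840000, which measured 0.780 to 0.918 Mb where it was called. It holds 12 coding genes, 9 of them zinc-finger genes of the Zfp series such as Zfp534, Zfp979 and Zfp985, whose start sites were inside it in all 10 libraries. Where this LAD was not called, chr4:109933001-114619000 was the nearest. It was not the next LAD in every library, as the shortest distance to a LAD of at least 1 Mb was 6.13 Mb.

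The presence of the Zfp LAD split fully by bin size. It was called in all 10 libraries with bin sizes of 4 to 31 kb and in none of the 4 with bin sizes of 35 to 61 kb, which were NS mouse 1, CT0 mouse 1, CT6 mouse 1 and CT30 mouse 2. Both mice of CT12, CT18 and CT24 had small bin sizes, and these are the groups in which both mice had the LAD. The part of the bin size in this pattern was not tested. Upstream of Per3 no LAD was called in any library over the 5.46 Mb that remain to the end of the chromosome.

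Per1 (chr11:69095217-69109960, plus strand) also differed widely between the mice of a group, with SDs of up to 13.3 Mb against up to 24.7 Mb for Per3. The nearest LAD was 21.9 Mb from the gene in NS mouse 1 and 4.29 Mb in mouse 2, 1.65 and 4.33 Mb at CT0, and 20.4 and 2.47 Mb at CT6. It was 4.22 and 2.36 Mb away at CT12, 20.7 and 2.04 Mb at CT18, 2.25 and 21.0 Mb at CT24 and 20.9 and 21.6 Mb at CT30. Only at CT0, CT12 and CT30 did both mice fall on the same side of 10 Mb. Upstream, a LAD at chr11:64625001-67445000 lay 1.65 to 2.47 Mb from the gene in 5 libraries, in 1 mouse each of CT0, CT6, CT12, CT18 and CT24. It held the start sites of Shisa6 and of Dnah9, which encodes a dynein of motile cilia. The LAD was called with bin sizes from 6 to 47 kb and missed with bin sizes from 4 to 61 kb. For this LAD bin size alone thus did not separate the libraries. Farther upstream, the LAD of Sgcd at chr11:46730001-48776000 was called in 11 libraries, with bin sizes of 4 to 35 kb. The 3 libraries that lacked it had bin sizes of 46 to 61 kb. In 6 libraries this LAD was the nearest one upstream, 20.4 to 21.0 Mb from the gene. All nearest distances in that range listed above belong to it.

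Downstream of Per1 the nearest LAD was one of 3. The one at chr11:73330001-74327000 holds 29 coding genes, of which 27 are olfactory receptor genes such as Olfr380, a family counted after the gene names were seen. It was 4.22 to 4.33 Mb away where it was nearest and was called in all 7 libraries with bin sizes of 4 to 14 kb and in none of the 7 with 18 to 61 kb. CT18 mouse 2 alone had a closer LAD, chr11:71154001-71856000, at 2.04 Mb. In the other libraries the nearest downstream LAD was chr11:90398001-93940000, the LAD of Kif2b and Car10. It was called in all 14 libraries and began 21.4 to 22.2 Mb from the gene where it was the nearest on that side.

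Per2 (chr1:91415982-91459324, minus strand) was nearest to its upstream LAD in all 14 libraries. The distance was 6.63 and 3.11 Mb in NS mice, 16.6 and 2.81 Mb at CT0, 2.83 and 2.68 Mb at CT6, 3.22 and 2.77 Mb at CT12, 2.97 and 2.62 Mb at CT18, 2.68 and 2.66 Mb at CT24 and 2.38 and 4.22 Mb at CT30, with mouse 1 given first. CT0 mouse 1 stood apart at 16.6 Mb and NS mouse 1 at 6.63 Mb, the libraries with the 2 largest bin sizes, 47 and 61 kb. The upstream LADs lie within chr1:93837001-104937000, a stretch of 11.1 Mb with 16 coding genes that include Fam174a, St8sia4 and Slco4c1. Pieces of it were called in 13 libraries, and CT0 mouse 1 had none and was nearest to chr1:107982001-118296000. On the other side of Per2 the nearest LAD was not the same one across the libraries. The downstream distance ran from 6.07 to 57.8 Mb over 5 LADs, and the closest of them, chr1:84954001-85344000, was called only in NS mouse 2 and CT18 mouse 2, with bin sizes of 4 and 6 kb. The farthest of them, chr1:25909752-33611000, was called in all 14 libraries but was the nearest in NS mouse 1 alone.

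Cry1 (chr10:85131700-85185064, minus strand) had the longest median distance of the 5 genes. The nearest LAD was 15.0 and 4.92 Mb away in NS mice, 10.4 and 10.8 Mb at CT0, 12.3 and 10.8 Mb at CT6, 10.8 and 10.6 Mb at CT12, 10.9 and 4.86 Mb at CT18, 10.3 and 11.4 Mb at CT24 and 10.8 and 10.4 Mb at CT30. In 10 libraries that LAD was the downstream one at chr10:71393001-74872000, which holds Zwint, a kinetochore gene, and Pcdh15, a protocadherin of sensory hair cells. It was called in 12 libraries and its near border moved over 1144 kb. The short values of 4.92 and 4.86 Mb belong to NS mouse 2 and CT18 mouse 2, which alone had a LAD of 0.444 to 0.468 Mb at chr10:90042001-90552000 with no coding gene in it. A further LAD upstream, chr10:97510001-98630000, was the nearest on that side in 5 libraries at 12.3 to 12.7 Mb, among them both mice of CT6 and of CT12. The large LAD of Lrriq1 and Slc6a15, chr10:100223001-107912000, was called in all 14 libraries and was the nearest on that side in 7.

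**Figure D2:**
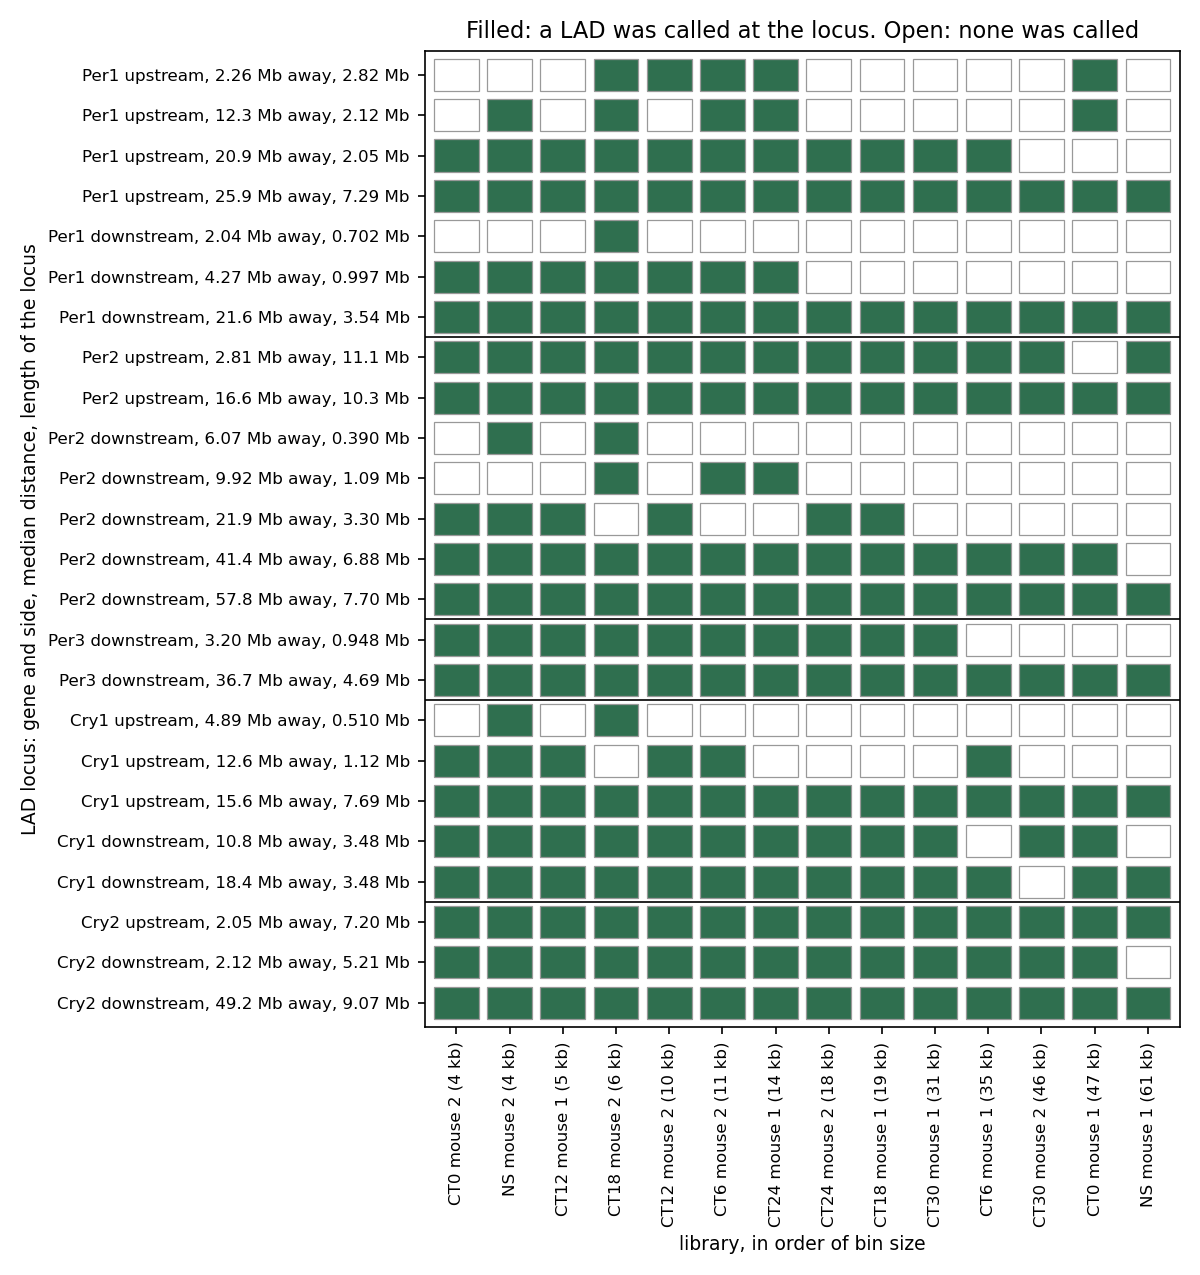
Each line is 1 of the 24 stretches that gave the nearest LAD to a gene on one side in at least 1 library, labelled with the median distance in the libraries where it was nearest and the length of the stretch, and each column is a library with its bin size in brackets. Filled squares show that a LAD was called there: 8 stretches are filled in all 14 libraries, and 5 of the other 16, among them the Per3 stretch at 3.20 Mb, are filled up to a given bin size and open above it. Of these, the Per2 downstream stretch at 41.4 Mb and the Cry2 downstream stretch at 2.12 Mb are open in NS mouse 1 alone.

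Cry2 (chr2:92403646-92434043, minus strand) had a LAD about as close on either side. The nearest LAD was 1.99 and 2.06 Mb away in NS mice, 2.04 and 2.23 Mb at CT0, 2.03 and 1.96 Mb at CT6, 2.23 and 2.05 Mb at CT12, 2.12 and 2.04 Mb at CT18, 2.01 and 2.03 Mb at CT24 and 1.95 and 1.97 Mb at CT30. The whole range was 1.95 to 2.23 Mb, and the nearer LAD was the upstream one in 7 libraries and the downstream one in 7. Upstream lies chr2:94428001-101626000, the LAD of Lrrc4c, a gene of synaptic adhesion, which was called in all 14 libraries at 1.99 to 2.66 Mb. Downstream lies chr2:85248001-90458000, where 227 of 234 coding genes are olfactory receptor genes such as Olfr1257, Olfr48 and Olfr1256. It was called in 13 libraries at 1.95 to 2.51 Mb and was missing in NS mouse 1, the library with the largest bin size, whose nearest downstream LAD was 49.2 Mb away.

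The stretch free of LADs around each gene gives its surroundings in another way. Around Cry2 it had a median of 4.29 Mb and 61 coding genes, and around Per3 8.71 Mb and 152 coding genes, counted up to the chromosome end. Around Per1, Per2 and Cry1 it had medians of 25.1, 25.2 and 25.9 Mb, with medians of 475, 253 and 371 coding genes. The stretch around Per1 was the most variable in gene number, from 147 genes in CT18 mouse 2 to 789 in CT30 mouse 2.

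The question of border shift or different LAD was then asked of every pair of libraries, 91 for each gene and side. The nearest LADs of 2 libraries were taken as the same LAD when they shared at least 1 bp. Of 819 pairs over the 9 gene sides with a LAD, 467 were border shifts and 352 (43.0%) were different LADs. Cry2 upstream was a border shift in all 91 pairs, and Cry2 downstream differed in 14.3%, all of them pairs with NS mouse 1. Per2 upstream differed in 22.0%, which was 8.97% without CT0 mouse 1, and Cry1 downstream in 26.4%, which was 15.4% without NS mouse 1 and likewise without CT6 mouse 1. The share was 44.0% for Per3 downstream, 60.4% for Per1 downstream, 64.8% for Cry1 upstream, 71.4% for Per1 upstream and 83.5% for Per2 downstream.

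The changes in distance in these classes differed in size. Median border shifts ran from 23.0 kb for Per3 downstream to 637 kb for Per2 downstream, whereas median changes between different LADs ran from 5280 kb for Cry1 upstream to 47039 kb for Cry2 downstream. Of the 467 border shifts, 67 (14.3%) were no larger than the larger bin size of the pair. The mice of 1 group differed about as often as mice of different groups, with a different LAD in 29 of 63 pairs (46.0%) against 323 of 756 (42.7%). These pairs share libraries and are a description with no test.

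**Figure D3:**
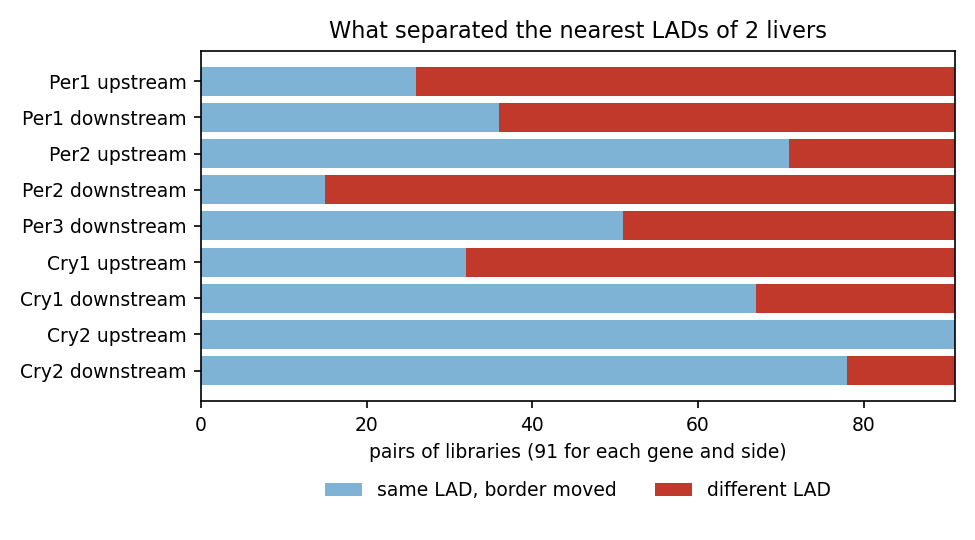
Number of pairs of libraries, of 91 for each gene and side, in which the nearest LADs shared at least 1 bp (blue, border moved) or shared none (red, different LAD). Cry2 upstream is blue in all 91 pairs and Per2 downstream is red in 76.

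Counting only LAD sequence called in both mice of a group gives 1 distance per group and side, and 54 steps between groups next to each other in time, from NS through CT0 to CT30. Of these steps 37 were border shifts, 10 brought a closer LAD and 7 lost one. Border shifts had a median of 0.385 Mb and a largest value of 2.36 Mb, and the gains and losses ran from 3.96 to 47.0 Mb. For Per3 the Zfp LAD appeared between CT6 and CT12, with a change from 36.7 to 3.22 Mb, and was lost between CT24 and CT30. For Per1 the olfactory receptor LAD downstream appeared between CT6 and CT12 and was lost between CT12 and CT18. For Per2 the step from NS to CT0 lost the closer upstream LAD, from 6.89 to 16.6 Mb, and at CT6 a LAD that shares no base with that of NS lay at 2.83 Mb. For Cry1 the downstream LAD at 10.8 Mb appeared at CT0, was lost at CT6 and appeared again at CT12. Cry2 had 11 border shifts in 12 steps, and its single gain was the downstream LAD between NS and CT0. A LAD enters such an intersect only where both mice have it, so a step can rest on 1 mouse. The olfactory receptor LAD near Per1 was called in 1 mouse each of NS, CT0, CT6, CT18 and CT24. The Zfp LAD was called in 1 mouse each of NS, CT0, CT6 and CT30, and the Cry1 downstream LAD in 1 mouse each of NS and CT6.

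Whether the distance differed among the 6 CTs was tested with an exact permutation test of the F ratio run through all 10395 ways to split the 12 CT libraries into pairs, for every gene, with Benjamini-Hochberg adjustment over all genes tested. For the nearest LAD the adjusted p of this exact test was 0.946 for Per1, 0.921 for Per2, 1.00 for Per3, 0.984 for Cry1 and 0.921 for Cry2. No gene of 20807 passed (0%), 5.93% had an unadjusted p below 0.05, and none of the 5 was among these. The lowest CT mean for Per3 was 3.20 Mb ± 0.0127 (SD, n = 2) at CT24 and the highest was 20.7 Mb ± 24.7 (SD, n = 2) at CT0, so the difference between CTs was smaller than the spread between the mice at CT0. For Per1 the CT means ran from 2.99 Mb ± 1.89 (SD, n = 2) at CT0 to 21.2 Mb ± 0.503 (SD, n = 2) at CT30, with an SD of 13.3 Mb at CT24.

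By side, 1 of the 9 tests had an unadjusted p below 0.05. It was the LAD downstream of Cry2, with F = 4.64, p = 0.0369 and adjusted p = 0.571 in the exact permutation test. Across all genes 7.74% had an unadjusted p below 0.05 for the downstream distance and 7.52% for the upstream one, and none passed after adjustment (0% for both). The distance was 2.12 and 2.23 Mb at CT0, 2.07 and 1.96 Mb at CT6, 2.23 and 2.35 Mb at CT12, 2.12 and 2.10 Mb at CT18, 2.22 and 2.51 Mb at CT24 and 1.95 and 1.97 Mb at CT30. Both mice of CT30 lay below both mice of CT0, CT12, CT18 and CT24, and so did both mice of CT6. After a linear fit on log2 bin size the permutation test is not exact, since bin size was spread unevenly over the CTs. Its unadjusted p for this distance was 0.132. The unadjusted p of the exact permutation test for this distance was 0.00972 with the replicate number as a block. When 1 library was left out it ran from 0.00202 without CT24 mouse 1 to 0.113 without CT30 mouse 1, and it was above 0.05 in 10 of 12 cases. The adjusted p values of the other sides ran from 0.892 to 1.00. Per3 upstream has no LAD and was not tested.

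**Figure D4:**
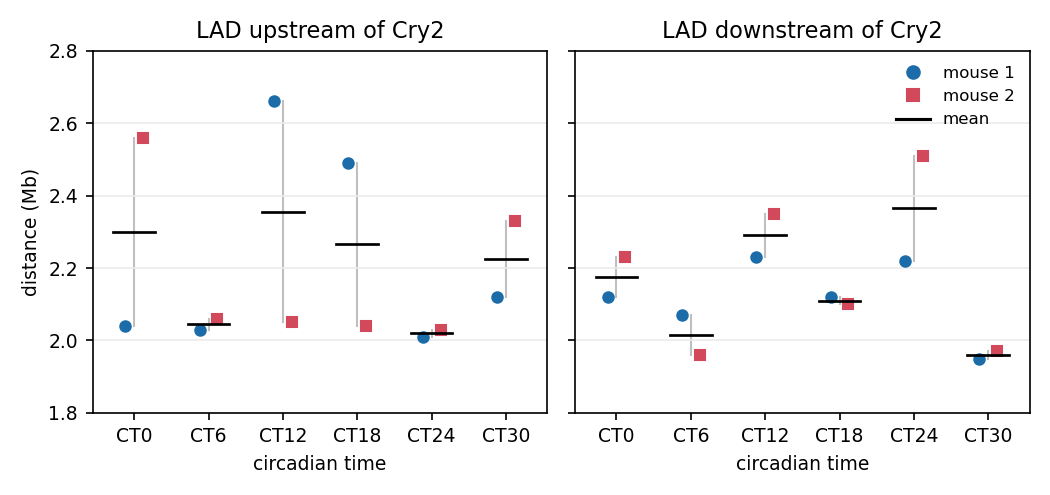
Distance in Mb from Cry2 to the nearest LAD on its upstream and downstream side in each CT, with a circle for mouse 1, a square for mouse 2 and a bar for their mean, on an axis that starts at 1.8 Mb. Downstream, both CT30 mice sit at 1.95 and 1.97 Mb and the CT24 mice at 2.22 and 2.51 Mb, whereas upstream the mice of CT0, CT12 and CT18 lie far apart.

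CT0 mice were then compared with NS mice. CT0 mice had fasted for 24 h and were killed in the morning at the time of refeeding. NS mice had not been fasted and were killed at noon. The groups thus differ in fasting and in time of day, which cannot be told apart. An effect of hours of refeeding is not part of this comparison. The mean nearest distance at CT0 minus that in NS mice was -10.1 Mb for Per1, 4.83 Mb for Per2, 0.916 Mb for Per3, 0.605 Mb for Cry1 and 0.103 Mb for Cry2. The groups overlapped for all 5 genes, whereas among all genes 11.1% were shorter at CT0 without overlap and 9.06% longer. The exact two-sided permutation test gave p = 0.667 or 1.00 for each, and 2 mice against 2 cannot go below 0.33. Without NS mouse 1 the difference for Per1 was -1.30 Mb, and without NS mouse 2 it was -18.9 Mb. Without CT0 mouse 1 the difference for Per2 turned to -2.06 Mb and that for Per3 to -16.6 Mb. The difference without NS mouse 2 was -15.7 Mb for Per3 and -4.45 Mb for Cry1. The Per3 difference is that between 2 groups in which 1 mouse had the Zfp LAD and 1 had not.

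From CT0 to CT12 the mean nearest distance changed by 0.300 Mb for Per1, -6.71 Mb for Per2, -17.5 Mb for Per3, 0.109 Mb for Cry1 and 0.00550 Mb for Cry2. The groups again overlapped for all 5 genes, against 19.5% of genes that were shorter at CT12 without overlap and 9.78% that were longer, and the exact permutation p was 0.667 or 1.00. The Per2 and Per3 values rest on CT0 mouse 1, since without it they were 0.180 and 0.00350 Mb. With LADs of at least 1 Mb alone, which leaves out the Zfp LAD, the Per3 difference was -0.730 Mb and the Per1 difference 9.44 Mb. Cry2 moved by less than 0.2 Mb whichever mouse was left out.

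The other genes of the clock were taken as a list of 24, with the activators, the nuclear receptors of the second loop, the kinases and ubiquitin ligases that act on PER and CRY, and the D-box factors. Their median nearest distance over the libraries ran from 0 to 27.1 Mb with a median of 4.31 Mb, beside 3.20 Mb for the 5 Per and Cry genes and 3.91 Mb for all genes. Rorb, a nuclear receptor of the retina and brain, was the single one to overlap a LAD, in 12 libraries. None of the 24 had an unadjusted p below 0.05 across CTs, where 5.93% of all genes had one, and the list is too short to read anything from that. Arntl lay 4.30 to 17.9 Mb from a LAD, Clock 1.20 to 6.53 Mb and Nr1d1 4.83 to 5.65 Mb.

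Genes on other chromosomes with the most similar profile of nearest distance over the 14 libraries were sought for each of the 5. At most 1 gene was taken per chromosome, so genes left out can have a higher r than some of those listed. For Per3 these were Dkkl1 (r = 0.994), Nr3c1, the glucocorticoid receptor (r = 0.992), and Pdlim3 (r = 0.892), and for Per2 Impg2 (r = 0.993), Itih3 (r = 0.982) and Gm7792 (r = 0.964). For Per1 they were Apc (r = 0.859), Ddx1 (r = 0.846) and Cbfa2t2 (r = 0.786). For Cry1 r was 0.849 with Tmem200c, 0.775 with Tmem202 and 0.728 with Col25a1. For Cry2 it was 0.846 with 0610030E20Rik, 0.806 with Adamts1 and 0.791 with Tmem37. Among the 5 genes themselves r ran from -0.315 to 0.617, with the highest value between Per2 and Per3. These are Pearson correlations over 14 libraries, given as a description, and the points share each library's bin size and number of calls. For Per2 the largest distance was 16.6 Mb, in CT0 mouse 1, and the next was 6.63 Mb, in NS mouse 1. Such far values weigh heavily in r, and r without them was not computed.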

How the data were processed

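LADs were deposited by the authors as mm10 intervals of start and end in bases, 1 set per mouse, with no signal or count. Per the study's methods, duplicates were removed with Picard, reads were mapped with Bowtie 2.25.0, ChIP and input were brought to equal depth per chromosome, and EDD called LADs with its own bin size and gap penalty for each library. The RNA-seq tools named in the labels were not used here.

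Distances were computed with Python 3.11.15 and NumPy 2.4.6 from gene bodies of the GENCODE annotation on GRCm38.p6 to LAD ends, in Mb, with 0 for an overlap. Upstream is the 5′ side of the gene. Genes on a chromosome that lacked a LAD in a library, which were the 1131 genes of X and Y, were not tested. Groups were the labelled times. The 5 genes and the clock list were chosen with earlier results of these data known. Genes named inside a LAD were up to 3 whose start site lay in the nearest LAD in the most libraries. Promoters of 4 of the 5 genes were matched in the RefSeq table. Tests were checked on simulated distances with normally distributed noise, which distances that switch between LADs, as at Per3, do not follow. Alternatives were LADs of at least 1 Mb, distance from the start site, log2 distance with 0.1 Mb added, a block by replicate number, a fit on bin size, an overlap of at least 0.5 of the shorter LAD, intersects of both mice and leaving out each library.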

Additional observations from a re-analysis of the deposited data

How the results depend on the processing

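None of the 14 member tests across CTs passed after adjustment under any of 238 alternatives, whose lowest adjusted p was 0.315 (exact permutation test). That says little about stability. With a smallest possible p of 9.62e-05, none of the 20807 genes tested for the nearest LAD could pass unless at least 41 passed together. Fewer genes were tested by side, and the replicate block has fewer permutations and so a larger smallest p. Genes with an unadjusted p below 0.05 numbered 1233 for the nearest LAD and 2210 with LADs of at least 1 Mb. They numbered 2722 after the fit on bin size, where the permutation test is not exact. Leaving out 1 library gave 550 to 3100 (3100 without CT0 mouse 2, 550 without CT12 mouse 1), 576 to 2414 upstream and 598 to 2502 downstream. A mouse left alone in its group was assumed to vary like the others. After adjustment, leaving out 1 library gave 0 to 34 genes upstream and 0 to 36 downstream, where the highest counts came without CT24 mouse 1.

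Replicate numbers were not taken to pair the mice: deviations of the same number correlated above 0.1 in 9 of 21 pairs of groups, with a range from -0.279 to 0.458. Numbers were taken from the sample titles, and 1 library each of NS, CT0 and CT12 was deposited under another number, so mouse 1 and mouse 2 are names only. With a replicate block the adjusted p ran from 0.577 to 1.00 over the 14 member tests and 1064 genes had an unadjusted p below 0.05 for the nearest LAD. The block changed no call.

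Differences of CT0 minus NS reversed for Cry1 with LADs of at least 1 Mb (-4.66 Mb) and in the intersect of both mice (-4.64 Mb). In the intersect the difference was -0.212 Mb for Per1, 9.70 Mb for Per2 and 1.49 Mb for Per3. Leaving out 1 library gave -18.9 to -1.30 Mb for Per1, -2.06 to 11.7 Mb for Per2, -16.6 to 18.4 Mb for Per3, -4.45 to 5.66 Mb for Cry1 and 0.00716 to 0.199 Mb for Cry2. Differences of CT12 minus CT0 reversed in the intersect for Per1 (-17.4 Mb) and Cry1 (-0.0390 Mb), and were -13.4 Mb for Per2, -35.0 Mb for Per3 and 0.126 Mb for Cry2 there. With LADs of at least 1 Mb they were 9.44 Mb for Per1 and -0.730 Mb for Per3. Leaving out 1 library gave -1.04 to 1.64 Mb for Per1, -13.6 to 0.180 Mb for Per2, -35.0 to 0.00350 Mb for Per3, -0.121 to 0.340 Mb for Cry1 and -0.0903 to 0.101 Mb for Cry2. The cause was not tested.

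The share of pairs with a different LAD was 0% for Per1 downstream and 14.3% for Cry1 upstream with LADs of at least 1 Mb, a limit that leaves out the olfactory receptor LAD near Per1 and the Zfp LAD near Per3. With it the median nearest distance was 20.8 Mb for Per1 and 36.7 Mb for Per3. In the 9 libraries with a bin size of at most 20 kb, a limit set after seeing the data, the share was 0% for Per2 upstream, Per3 downstream, Cry1 downstream and Cry2 downstream, but 55.6% for Per1 downstream, 66.7% for Per1 upstream, 72.2% for Cry1 upstream and 75.0% for Per2 downstream, and 29.9% over all sides. The limit leaves out every library that lacked the common LAD on a side with 0%. It also leaves out NS mouse 1, whose LAD upstream of Per2 shared no base with that of some other libraries. The shares of 0% thus follow from the limit itself. Leaving out 1 library gave 8.97 to 24.4% for Per2 upstream, 15.4 to 28.2% for Cry1 downstream and 0 to 15.4% for Cry2 downstream.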
